A study of Mus musculus with 8 samples.

Results

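The fibroblast growth factor (FGF) genes described here are the FGF ligands, the FGF receptors, the adaptors and membrane partners of those receptors, and the genes whose transcription FGF signaling is known to induce, most of them inhibitors of the same pathway. They were chosen by gene symbol, with earlier results of these data known. The rule named 45 genes, of which 44 had a transcript cluster carrying their symbol among the 22180 genes measured, and the docking adaptor *Frs2* was not analysed here. RNA was measured in O9-1 cells, an immortalized line of cranial neural crest cells (cNCCs) from the mouse, on 8 Affymetrix Mouse Gene 2.0 ST arrays. 4 cultures received vehicle and 4 received SHH-N, the amino-terminal signaling peptide of Sonic hedgehog, at 0.4 μg/mL in DMEM with 1% FBS after 24 h of attachment, and RNA was collected 48 h later. Both groups are the same cell line and the labels name no other cell type, and the cultures of a treatment are biological replicates by their labels. The comparison asks which FGF genes differ in RNA signal between SHH-treated and vehicle-treated cNCCs.

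FGF ligands are secreted proteins that bind receptor tyrosine kinases of the Fgfr family, which relay the signal through docking adaptors, Ras and the kinase ERK, and through PI3K. ERK signaling induces the ETS transcription factors of the Pea3 group and a set of inhibitors, the Sprouty and Spred proteins, dual-specificity phosphatases and Sef, which act back on the pathway. In the developing face, FGF and Shh signals pass between the surface epithelium and the neural crest-derived mesenchyme, and FGF signaling is required for the growth of the facial processes and the palate.

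Of the 44 FGF genes, 15 passed the test, a limma adjusted p under 0.01 over all 41345 transcript clusters of the array. 10 were higher in SHH-treated cells, which is 22.7% of the FGF genes beside 4.79% of all genes. 5 were lower, or 11.4% beside 5.19% of all genes. In either direction the share was 34.1% of the FGF genes and 9.98% of all genes. The receptor *Fgfr2*, the membrane partners *Flrt2* and *Flrt3*, the inhibitors *Spry1*, *Spred3*, *Dusp5* and *Dusp6*, the transcription factors *Etv1* and *Etv5* and the ligand *Fgf5* rose. The ligands *Fgf7*, *Fgf10* and *Fgf18* and the inhibitors *Spry2* and *Il17rd* fell. The median difference of the 44 genes was 0.05 on the log2 scale beside 0.01 over all genes, and the median absolute difference was 0.28 beside 0.11. Leaving out vehicle replicate 1 or vehicle replicate 2 brought the number of lower FGF genes from 5 to 3, because *Fgf10* and *Il17rd* no longer passed.

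**Figure D1:**
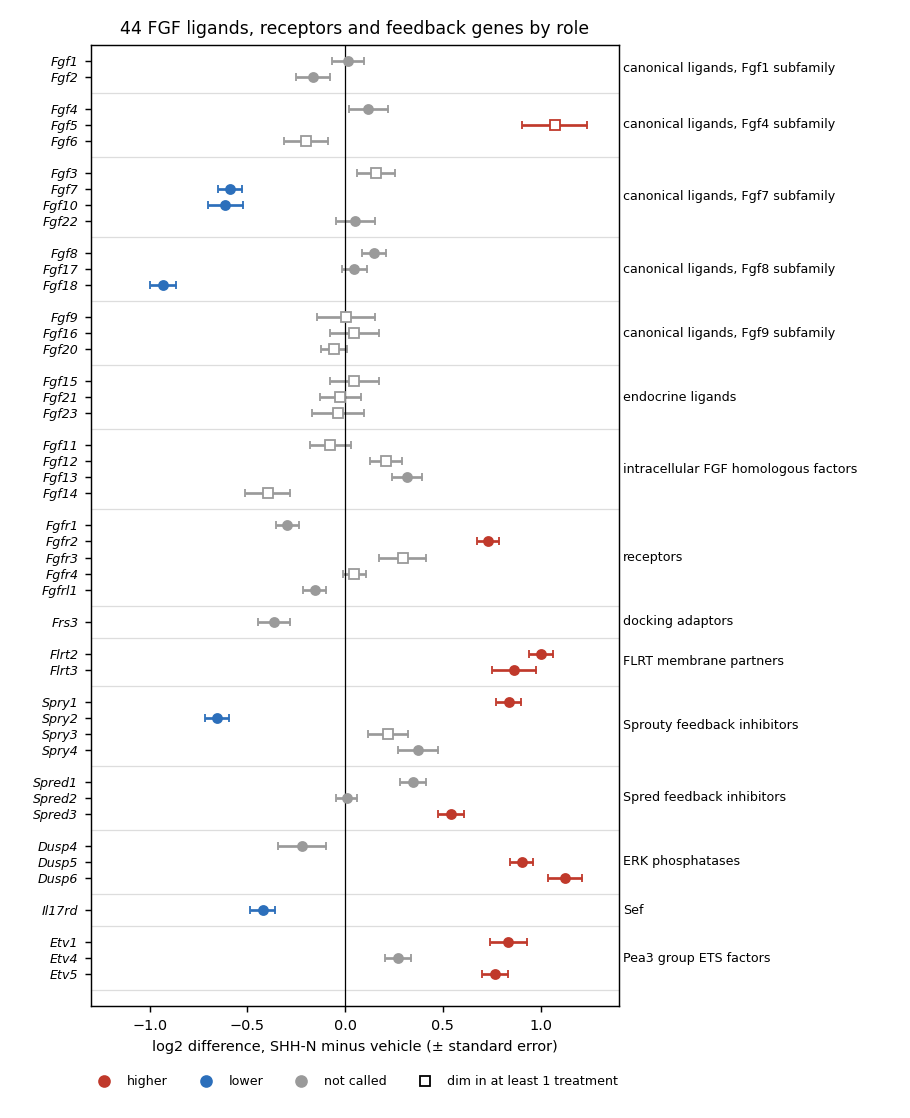
Log2 difference of SHH-treated minus vehicle-treated cNCCs for each of the 44 FGF genes, grouped by role, with its standard error from limma (4 arrays a treatment). Red points passed the test as higher, blue as lower, and grey did not pass. Open squares mark genes whose mean in at least 1 treatment did not exceed 5.76, which is the median of the array with the highest median. Of the 10 rises, 9 are receptor, membrane partner, inhibitor or Pea3 genes. Of the 5 falls, 3 are ligands and the others are the inhibitors *Spry2* and *Il17rd*. Secreted ligands make up 18 of the 44 genes, and their median difference was 0.01.

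As a check of the treatment, the Shh target genes *Gli1*, *Ptch1* and *Hhip* were higher by 4.71, 4.39 and 6.84 on the log2 scale. Array medians lay between 5.70 and 5.76, arrays of the same treatment correlated at 0.988 or more and arrays of different treatments at 0.984 or less. No separate background values were used here, and the highest array median, 5.76, serves as the mark for dim genes. Of the neural crest markers, *Sox9* had a mean log2 signal of 10.89 and *Sox10* and *Pax3* lay near the array medians at 5.82 and 5.45. Of the 7 neural crest markers 1 rose, *Ngfr* by 0.90, and 2 fell, *Snai2* and *Tfap2a*, with differences of -1.53 and -0.98. Of the 6 facial mesenchyme markers 1 rose, *Pdgfra* by 0.32, and 3 fell. These were *Prrx1*, *Col1a1* and *Col1a2*, with differences of -0.62, -0.57 and -0.42. The shares that passed, 42.9% and 66.7%, stand beside 9.98% of all genes. Of 8 epithelial markers, 5 lay at or below 5.76, among them *Epcam* at 4.52 and *Esrp1* at 4.70. *Cdh1* rose by 1.77, from a mean of 6.35 to 8.12. The other 7 did not pass, with differences from -0.12 for *Grhl2* to 0.14 for *Krt8*. The summed linear signal of the list was 389 to 429 in vehicle-treated and 597 to 648 in SHH-treated cultures. Most of that difference is *Cdh1*. The endothelial list of 4 genes summed to 178 to 191 and 200 to 222, with *Cdh5* higher by 0.67, and none of the 4 leukocyte or 4 neuron markers passed the test. The leukocyte list summed to 195 to 213 in vehicle-treated and 190 to 219 in SHH-treated cultures, and the neuron list to 279 to 319 and 311 to 414. The part of these markers in the changes of the FGF genes was not tested. Fewer cells that express a gene and less of its RNA per cell cannot be told apart in these bulk samples.

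Upstream sequence was read for the 33 FGF genes with an entry in the RefSeq promoter table (GRCm38.p6), as the 250 bases before each annotated start. 4 motifs were searched on both strands, and they were chosen after the calls were known: GACCACCCA, a binding site of the Gli factors that act downstream of Shh, its core CCACCCA, which lies within the first motif, the ETS core CCGGAA and the AP-1 site TGACTCA. The core CCACCCA was found upstream of 5 of the 10 higher genes (*Fgf5*, *Flrt2*, *Dusp5*, *Etv1* and *Etv5*), of 0 of the 5 lower genes and of 0 of the 18 genes that did not pass, and upstream of 9.29% of all 27025 genes of the table. The whole motif GACCACCCA was upstream of none of the 33 and of 0.255% of all genes. CCGGAA was upstream of 2 of the 10 higher genes (*Fgf5* and *Flrt2*), 0 of the 5 lower and 3 of the 18 others (*Fgf12*, *Fgfr4* and *Fgfrl1*), beside 13.6% of all genes, and TGACTCA was upstream of *Fgf12* alone, beside 5.16%. *Etv1* and *Etv5* each have a second annotated start with no match. The windows of the 5 genes with CCACCCA are printed because they hold every match of that core among the 33 genes, and that of *Fgf18*, the ligand with the largest fall, is printed as 1 of the windows without a match. Bases run 5′ to 3′ on the strand of the gene, ending at the base before the start, and capitals mark CCACCCA or its reverse complement TGGGTGG, and CCGGAA or its reverse complement TTCCGG.
*Dusp5*, chr19:53528895-53529144, strand +: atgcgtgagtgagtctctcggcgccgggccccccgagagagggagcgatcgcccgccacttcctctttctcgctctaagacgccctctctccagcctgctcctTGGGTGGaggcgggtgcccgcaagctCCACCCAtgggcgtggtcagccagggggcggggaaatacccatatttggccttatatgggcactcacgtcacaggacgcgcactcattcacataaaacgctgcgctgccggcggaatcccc
*Etv1*, chr12:38779832-38780081, strand +: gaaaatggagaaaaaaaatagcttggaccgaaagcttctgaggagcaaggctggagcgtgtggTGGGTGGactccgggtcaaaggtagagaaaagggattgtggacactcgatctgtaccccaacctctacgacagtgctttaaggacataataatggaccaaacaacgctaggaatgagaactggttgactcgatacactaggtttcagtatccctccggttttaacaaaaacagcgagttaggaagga
*Etv5*, chr16:22438369-22438618, strand -: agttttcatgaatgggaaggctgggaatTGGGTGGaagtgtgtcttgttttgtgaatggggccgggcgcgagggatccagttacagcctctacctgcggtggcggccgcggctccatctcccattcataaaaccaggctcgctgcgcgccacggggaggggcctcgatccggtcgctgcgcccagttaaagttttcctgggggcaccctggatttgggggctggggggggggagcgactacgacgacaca
*Flrt2*, chr12:95691976-95692225, strand +: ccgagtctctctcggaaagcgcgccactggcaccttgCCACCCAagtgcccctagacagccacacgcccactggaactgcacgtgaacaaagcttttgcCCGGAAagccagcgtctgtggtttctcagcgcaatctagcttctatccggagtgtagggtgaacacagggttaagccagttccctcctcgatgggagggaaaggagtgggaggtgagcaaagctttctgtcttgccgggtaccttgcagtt
*Fgf5*, chr5:98253934-98254183, strand +: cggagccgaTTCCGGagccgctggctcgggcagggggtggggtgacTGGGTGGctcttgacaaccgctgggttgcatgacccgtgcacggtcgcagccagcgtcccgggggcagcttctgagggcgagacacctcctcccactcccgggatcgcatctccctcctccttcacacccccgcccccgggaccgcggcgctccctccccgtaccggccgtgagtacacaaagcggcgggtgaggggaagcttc
*Fgf18*, chr11:33147401-33147650, strand -: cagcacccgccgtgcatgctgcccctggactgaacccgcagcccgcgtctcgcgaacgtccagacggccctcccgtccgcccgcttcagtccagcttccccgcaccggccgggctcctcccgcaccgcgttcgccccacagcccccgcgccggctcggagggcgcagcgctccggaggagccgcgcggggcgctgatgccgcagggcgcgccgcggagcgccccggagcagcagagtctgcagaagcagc
The *Dusp5* window holds the core at 147 bases before the start on the minus strand and at 121 on the plus strand of the gene. Single cores lie at 187 bases in *Etv1*, 222 in *Etv5*, 213 in *Flrt2* and 204 in *Fgf5*. A match of letters is not a measured site, and binding was not measured in these data.

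Among the 22 *Fgf* genes, 1 rose, 3 fell and 18 did not pass the test, beside 4.79% higher and 5.19% lower over all genes. 4 of the 22 are the intracellular FGF homologous factors, which bind sodium channels and not FGF receptors, and the other 18 are secreted. Of the 18 secreted ligands 4 passed, 3 of which fell, and over all genes 9.98% passed in either direction. In 10 of the 18 *Fgf* genes that did not pass, both treatments had a mean at or below 5.76, so that their signal may be background and a change in them may not be detectable.

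*Fgf18*, a ligand of the Fgf8 subfamily with known roles in cartilage, bone and palate, had the largest fall among the FGF genes. Its log2 signal (transcript cluster 17261542) was 8.57, 8.51, 8.68 and 8.46 in the vehicle-treated cultures and 7.54, 7.66, 7.60 and 7.68 in the SHH-treated cultures. The lowest vehicle-treated array lay above every SHH-treated array. The difference was -0.93 ± 0.0666 (SE), limma adjusted p = 4.22e-05, or 1.91-fold lower.

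*Fgf7* and *Fgf10* belong to a subfamily known as mesenchymal signals to epithelial cells, which bind the form of Fgfr2 that epithelia make. *Fgf7* (cluster 17375685) read 11.22, 11.16, 11.20 and 11.16 with vehicle and 10.60, 10.63, 10.68 and 10.47 with SHH. The treatments did not overlap, and the difference was -0.59 ± 0.0609 (SE), limma adjusted p = 3.42e-04. *Fgf10* (cluster 17290111), the ligand required for limb and lung budding, read 7.47, 7.49, 7.57 and 7.28 with vehicle and 6.71, 6.88, 6.77 and 7.01 with SHH. All 4 SHH-treated arrays were below the vehicle-treated ones, and the difference was -0.61 ± 0.0907 (SE), limma adjusted p = 0.00269, a 1.53-fold fall. Its dimmer transcript cluster also fell, by 0.42 with a limma adjusted p of 0.00442. The call of *Fgf10* was close to the threshold: without vehicle replicate 1, 2 or 3 or SHH-N replicate 3 its adjusted p lay between 0.01002 and 0.0117, and its difference between -0.61 and -0.57. The remaining ligands of this subfamily, *Fgf3* and *Fgf22*, differed by 0.16 and 0.05 and did not pass.

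*Fgf5*, known as an inhibitor of hair growth, was the single ligand that rose. It read (cluster 17439517) 5.37, 5.23, 4.63 and 5.37 with vehicle and 6.10, 6.16, 6.28 and 6.35 with SHH. The treatments did not overlap, and vehicle replicate 3 was lower than the other vehicle-treated arrays. The difference was 1.07 ± 0.165 (SE), limma adjusted p = 0.00334, or 2.10-fold, and since the vehicle mean of 5.15 lay below 5.76 the fold may be a lower bound. Without vehicle replicate 2 or SHH-N replicate 2, 3 or 4 its adjusted p lay between 0.0110 and 0.0141, and in an unmoderated linear model it was 0.0158.

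None of the other 14 secreted ligands passed the test, and their differences ran from -0.20 for *Fgf6* to 0.16 for *Fgf3*. *Fgf8*, the ligand of the facial ectoderm, had means of 5.79 and 5.94. Its arrays did not overlap, but the difference of 0.15 had a 95% interval of 0.01 to 0.29 before adjustment and a limma adjusted p of 0.182. *Fgf17*, of the same subfamily as *Fgf18*, had a mean of 6.60 and differed by 0.05 (interval -0.10 to 0.19). *Fgf2*, long used as a growth factor for cultured cells, differed by -0.17, *Fgf1* by 0.01 and *Fgf4* by 0.12. The Fgf9 subfamily (*Fgf9*, *Fgf16* and *Fgf20*) and the endocrine ligands *Fgf15*, *Fgf21* and *Fgf23*, which act on distant tissues through Klotho coreceptors, had vehicle means from 4.92 to 5.71 and differences between -0.06 and 0.05. None of the 4 homologous factors passed. *Fgf13* differed by 0.32 (limma adjusted p = 0.0338) with no overlap, *Fgf14* by -0.40 (0.0674) with overlap, *Fgf12* by 0.21 and *Fgf11* by -0.08.

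**Figure D2:**
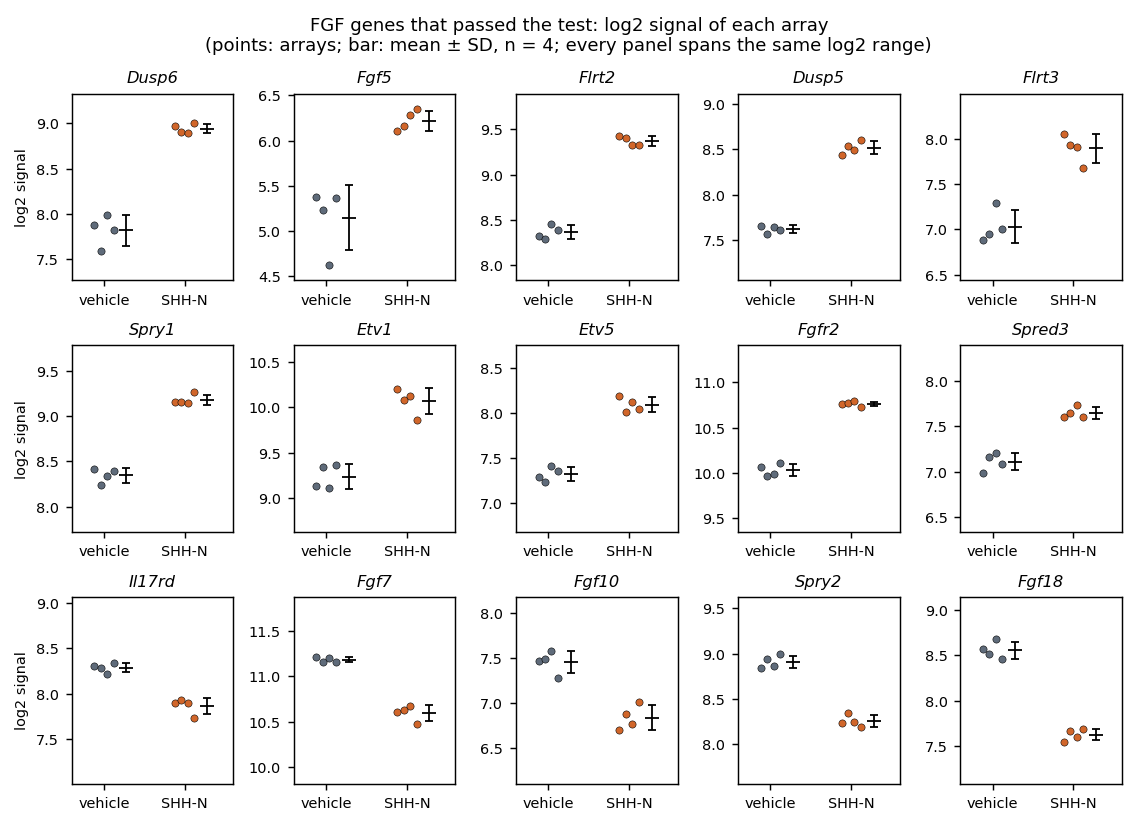
Log2 signal of each array for the 15 FGF genes that passed the test, with vehicle-treated cultures in grey, SHH-treated cultures in orange and the mean ± SD of 4 arrays beside them; every panel spans the same log2 range, with its own offset. The treatments do not overlap in any of the 15 panels, and the widest spread is that of vehicle-treated *Fgf5*, from 4.63 to 5.37.

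Of the 5 receptor genes, *Fgfr2* rose and none fell at the threshold used. *Fgfr2* (cluster 17496947), whose mutations cause craniosynostosis syndromes in humans, read 10.06, 9.96, 9.99 and 10.10 with vehicle and 10.76, 10.77, 10.79 and 10.72 with SHH. Every SHH-treated array was above every vehicle-treated array, and the 4 SHH-treated arrays lay within a range of less than 0.1. The difference was 0.73 ± 0.0554 (SE), limma adjusted p = 5.92e-05, or 1.66-fold higher. The deposited value covers the gene as a whole, so that its epithelial and mesenchymal splice forms cannot be told apart. The splicing regulators of the epithelial form, *Esrp1* and *Esrp2*, had mean signals of 4.70 and 6.03 and differed by -0.04 and 0.02.

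*Fgfr1*, the main receptor of mesenchymal cells, read 10.96, 10.98, 10.84 and 11.03 with vehicle and 10.68, 10.64, 10.63 and 10.68 with SHH. The SHH-treated arrays were all lower, but the difference of -0.30 ± 0.0592 (SE) had a limma adjusted p of 0.0134, just outside the threshold. It passed when clusters below the median signal or without a single symbol were left out (0.0029 and 0.00442), with trend and robust settings (0.00145) and in an unmoderated linear model (0.00778). *Fgfrl1*, a receptor without a tyrosine kinase domain, also had SHH-treated arrays below the vehicle-treated ones and a difference of -0.16 (adjusted p = 0.158). *Fgfr3* and *Fgfr4* had means of 5.35 and 5.54, at or below 5.76 in both treatments, and differences of 0.29 and 0.05.

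The change of *Fgfr2* differed from those of *Fgfr1* and *Fgfrl1*. In 10 pairs of receptors, the change of 1 gene was set against that of the other on the same arrays, with an exact two-sided permutation test and Benjamini-Hochberg adjustment over the 10 pairs. 7 pairs passed at an adjusted p under 0.05, each at the smallest exact p that 4 against 4 arrays allow, 0.0286, which became 0.0408 after adjustment. 5 of the 7 hold *Fgfr3* or *Fgfr4*, which were dim in both treatments, so that their own change may not be measured and such a pair may only restate the change of the brighter gene. Of the 3 pairs without a dim gene, 2 passed. In these 2, SHH-treated arrays lay wholly above for *Fgfr2* and wholly below for the other gene, so the exact p could not be larger. Their adjusted p also rests on how many of the 10 pairs tie at that value, those with a dim gene included. The change of *Fgfr2* exceeded that of *Fgfr1* by 1.03 ± 0.0438 (SE) on the log2 scale. The *Fgfr2* signal minus the *Fgfr1* signal was between -1.02 and -0.85 in the vehicle-treated arrays and between 0.04 and 0.16 in the SHH-treated arrays, which shows the size of the shift and not which receptor is more abundant. The change of *Fgfrl1* lay -0.89 ± 0.0639 (SE) from that of *Fgfr2*. *Fgfrl1* and *Fgfr1* differed in their change by 0.14 ± 0.0728 (SE) and did not pass (exact permutation adjusted p = 0.114).

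**Figure D3:**
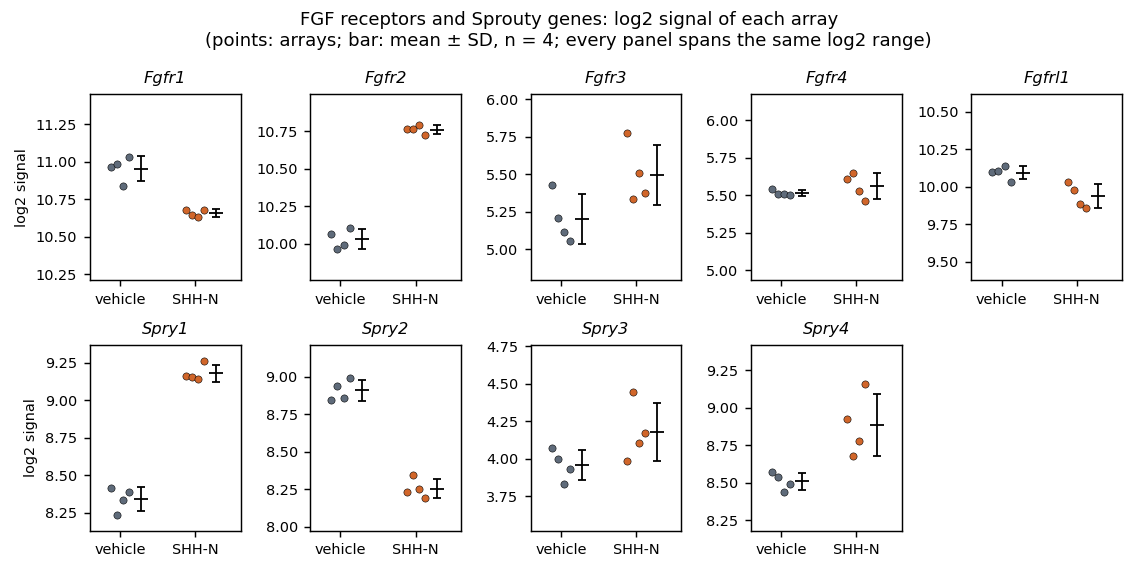
Log2 signal of each array for the 5 receptor genes and the 4 Sprouty genes, with vehicle-treated cultures in grey, SHH-treated cultures in orange and the mean ± SD of 4 arrays beside them; every panel spans the same log2 range, with its own offset. *Fgfr2* and *Spry1* are higher in SHH-treated cultures and *Spry2* is lower, with no overlap, whereas *Fgfr3*, *Fgfr4* and *Spry3* overlap.

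*Frs3*, a docking adaptor that binds the receptor inside the cell, read 6.28, 6.13, 6.26 and 6.01 with vehicle and 5.83, 5.78, 5.70 and 5.91 with SHH. The SHH-treated arrays were lower without overlap, and the difference of -0.36 ± 0.0810 (SE) did not pass at a limma adjusted p of 0.0218. It passed only when clusters below the median signal or without a single symbol were left out (0.00707 and 0.00814).

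Both FLRT genes rose. They encode transmembrane proteins with leucine-rich repeats that bind FGF receptors, a role shown for Flrt3 in *Xenopus*, and that guide cells through Unc5 receptors. *Flrt2* (cluster 17277788) read 8.32, 8.29, 8.46 and 8.39 with vehicle and 9.43, 9.40, 9.33 and 9.32 with SHH. With no overlap, the difference was 1.00 ± 0.0608 (SE), limma adjusted p = 1.70e-05, or 2.01-fold, the second largest rise of the FGF genes that were above 5.76 in both treatments. *Flrt3* (cluster 17392255) read 6.88, 6.95, 7.29 and 6.999 with vehicle and 8.06, 7.94, 7.91 and 7.68 with SHH. It was 1.82-fold higher without overlap (log2 difference 0.86 ± 0.113 (SE), limma adjusted p = 0.00133), and its arrays were more spread than those of *Flrt2* in both treatments (SD 0.183 and 0.158 beside 0.0738 and 0.0545, n = 4). The related *Flrt1*, counted with the partners described further on, differed by -0.07 and did not pass.

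Among the 11 inhibitor genes, 4 rose, 2 fell and 5 did not pass, beside 4.79% higher and 5.19% lower over all genes. The change differed in direction within 1 family, the Sprouty proteins, which inhibit Ras and ERK activation downstream of receptor tyrosine kinases. *Spry1* (cluster 17397170) read 8.42, 8.23, 8.34 and 8.39 with vehicle and 9.16, 9.16, 9.14 and 9.27 with SHH. All SHH-treated arrays were higher, by 1.79-fold on average (log2 difference 0.84 ± 0.0627 (SE), limma adjusted p = 5.59e-05). *Spry2* (cluster 17309340), which is required for palate closure in mice, read 8.85, 8.94, 8.86 and 8.99 with vehicle and 8.23, 8.34, 8.25 and 8.19 with SHH. All SHH-treated arrays were lower, by 1.58-fold on average (log2 difference -0.66 ± 0.0617 (SE), limma adjusted p = 2.04e-04).

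*Spry4* read 8.57, 8.54, 8.44 and 8.49 with vehicle and 8.92, 8.68, 8.78 and 9.16 with SHH. The treatments did not overlap, but the SHH-treated arrays were spread over a wider range, and the difference of 0.37 ± 0.103 (SE) had a limma adjusted p of 0.0549. *Spry3* was dim in both treatments, with a mean of 4.07 and a difference of 0.22. Of the 6 Sprouty pairs, 5 passed the test of their difference in change, each at an exact permutation p of 0.0286 and an adjusted p of 0.0343 over the 6 pairs. 2 of the 5 hold the dim *Spry3* and may only restate the change of the brighter gene, and the other 3 are all the pairs without it. For *Spry2* against *Spry1* or *Spry4*, the single genes already separated in opposite directions, so the exact p could not be larger. The adjusted p also rests on ties among the 6 pairs, those with *Spry3* included. The change of *Spry2* lay -1.49 ± 0.0804 (SE) from that of *Spry1*. The change of *Spry4* lay between them, -0.46 ± 0.0932 (SE) from that of *Spry1* and 1.03 ± 0.142 (SE) from that of *Spry2*. Without vehicle replicate 2, 0 of the 6 pairs passed: the change of *Spry2* then lay -1.45 from that of *Spry1*, and the exact permutation adjusted p of the 3 pairs without *Spry3* lay between 0.0571 and 0.0686.

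Of the Spred genes, whose proteins bring the Ras inhibitor neurofibromin to the membrane, *Spred3* rose. It read (cluster 17488735) 6.99, 7.16, 7.20 and 7.08 with vehicle and 7.60, 7.65, 7.74 and 7.60 with SHH. The treatments did not overlap, and the difference was 0.54 ± 0.0671 (SE), limma adjusted p = 9.88e-04, or 1.46-fold. *Spred1*, which is mutated in Legius syndrome in humans, read 9.79, 9.60, 9.61 and 9.62 with vehicle and 10.01, 9.91, 10.01 and 10.08 with SHH. It had no overlap and a difference of 0.35 ± 0.0675 (SE), and its limma adjusted p of 0.0118 was the smallest of the FGF genes that did not pass. It passed at 0.00851 without vehicle replicate 1, the highest of the vehicle-treated arrays, and also with trend and robust settings (0.0022), after median centring (0.0088) and when clusters were limited to those brighter than the median cluster (0.00304) or those with 1 symbol (0.00386). *Spred2* had means of 9.70 and 9.71, and its difference of 0.01 had a 95% interval of -0.12 to 0.13.

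*Dusp6*, the cytoplasmic phosphatase that removes phosphate from ERK and a widely used readout of FGF signaling, had the largest rise of the 44 genes. Its brightest cluster (17236882) read 7.87, 7.59, 7.98 and 7.82 with vehicle and 8.97, 8.90, 8.90 and 9.003 with SHH. The treatments did not overlap, and the SHH-treated arrays were the tighter group. The difference was 1.12 ± 0.0882 (SE), limma adjusted p = 7.17e-05, or 2.18-fold. A second cluster that carries the symbol had a mean of only 4.27 and differed by 0.06 (limma adjusted p = 0.793).

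*Dusp5*, a nuclear phosphatase of ERK, also rose. Its cluster (17360348) read 7.65, 7.56, 7.64 and 7.61 with vehicle and 8.44, 8.54, 8.50 and 8.61 with SHH. It was higher in all SHH-treated arrays, by 1.87-fold on average (log2 difference 0.90 ± 0.0583 (SE), limma adjusted p = 2.42e-05). *Dusp4*, the other nuclear phosphatase of the rule, did not pass, with a difference of -0.22 (interval -0.50 to 0.06) and overlapping treatments.

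*Il17rd* encodes Sef, a transmembrane inhibitor of FGF receptor signaling first described in zebrafish. It read (cluster 17298021) 8.31, 8.28, 8.22 and 8.34 with vehicle and 7.90, 7.93, 7.90 and 7.73 with SHH. SHH-treated arrays were lower without overlap, by 1.34-fold on average (log2 difference -0.42 ± 0.0644 (SE), limma adjusted p = 0.00319), the smallest change among the 15 genes that passed. Without vehicle replicate 1, 2 or 4 or SHH-N replicate 1 its adjusted p lay between 0.0103 and 0.0136.

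The Pea3 group of ETS transcription factors, which are transcribed in response to FGF in many embryonic tissues, had 2 of 3 members higher. *Etv1* (cluster 17289547) read 9.13, 9.34, 9.10 and 9.36 with vehicle and 10.20, 10.08, 10.13 and 9.86 with SHH. The treatments did not overlap, and the difference was 0.84 ± 0.0967 (SE), limma adjusted p = 6.59e-04, or 1.78-fold. Its dimmer cluster was higher by 0.82 (limma adjusted p = 1.87e-04). *Etv5* (cluster 17329298) read 7.30, 7.24, 7.41 and 7.36 with vehicle and 8.19, 8.01, 8.12 and 8.05 with SHH. It was 1.70-fold higher without overlap (log2 difference 0.77 ± 0.0657 (SE), limma adjusted p = 1.18e-04), while a second cluster with a mean of 5.78 differed by 0.09 and did not pass. *Etv4* read 6.21, 6.12, 6.18 and 6.13 with vehicle and 6.43, 6.32, 6.39 and 6.57 with SHH, again without overlap, and its difference of 0.27 ± 0.0672 (SE) did not pass (limma adjusted p = 0.0362).

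Of the 30 FGF genes whose mean was above the median cluster signal, 14 passed, or 46.7% beside 16.5% of all genes above that median. The gene that passed from below it was *Fgf5*. The SHH-treated arrays lay wholly above the vehicle-treated arrays in 15 FGF genes, or 34.1% beside 12.6% of all genes, and wholly below in 8, or 18.2% beside 12.5%. 8 of these 23 genes did not pass the test, *Fgf8*, *Fgf13*, *Spry4*, *Spred1* and *Etv4* above and *Fgfr1*, *Fgfrl1* and *Frs3* below. The 29 genes that did not pass had differences between -0.40 and 0.37, and 13 of them were at or below 5.76 in both treatments. The SD of 4 arrays was 0.0920 in the median over the FGF genes and both treatments.

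**Figure D4:**
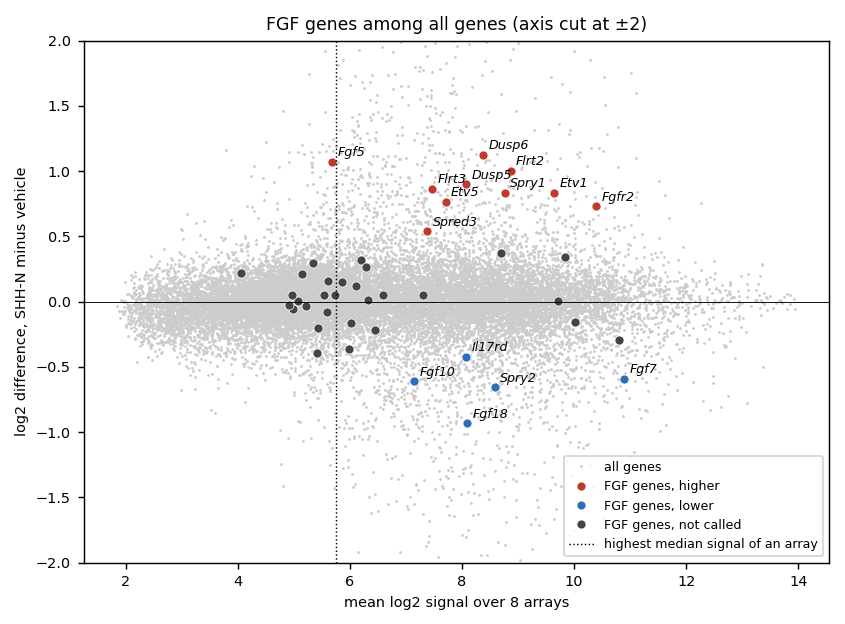
Log2 difference of SHH-treated minus vehicle-treated cNCCs against the mean log2 signal over 8 arrays, for all genes (light grey; the vertical axis stops at 2 in either direction and genes beyond it are not drawn) and for the 44 FGF genes (red higher, blue lower, dark grey did not pass). The dotted line marks 5.76, and *Fgf5* is the FGF gene left of it that passed.

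Other genes of the pathway were counted from 4 lists. In the relay from the receptor to ERK and PI3K, 24 of 30 listed genes were measured, of which 3 rose, 1 fell and 20 did not pass, with a median difference of -0.03 beside 0.01 over all genes. The share that passed was 16.7%, beside 16.5% of all genes above the median cluster signal, where all 24 lie. *Ksr1*, a scaffold of the ERK cascade, rose by 0.77 and *Pik3r1*, a regulatory subunit of PI3K, by 0.73. *Braf*, the kinase that activates MEK, had means of 9.92 with vehicle and 9.26 with SHH and a difference of -0.65 ± 0.0658 (SE), limma adjusted p = 2.94e-04. *Gab1*, a docking protein, completed the 3 with a rise of 0.56. Of 9 genes listed as coreceptors, FGF-binding proteins and matrix partners, 2 rose and 1 fell, and the 33.3% that passed stand beside 9.98% of all genes. Their median of 0.16 is the value of *Fgfr1op2*, which did not pass and may not belong to any of these classes. *Nrp1*, a coreceptor of VEGF and semaphorins that also binds FGFs, rose by 2.22. *Ncam1*, an adhesion molecule that binds FGF receptors, rose by 1.75, and *Hspg2*, the heparan sulfate proteoglycan perlecan, had a difference of -0.83.

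Of 21 genes listed as other negative regulators of receptor tyrosine kinase and ERK signaling, 6 rose, 4 fell and 11 did not pass, with a median of -0.02. The list also holds *Peak1*, which did not pass and may not be a negative regulator. The shares were 28.6% higher and 19.0% lower, beside 4.79% and 5.19% of all genes, and 47.6% in either direction beside 16.5% of all genes above the median cluster signal. *Socs1* and *Socs3*, suppressors of cytokine signaling, went in opposite directions, with differences of 1.48 and -0.71. *Lrig3*, a membrane protein with leucine-rich repeats, rose by 0.73. The other 3 that fell were *Dusp1*, *Dusp16* and *Errfi1*, with differences of -0.60, -0.59 and -0.33. Of 18 measured genes listed here as immediate or delayed targets of ERK, 9 rose, 3 fell and 6 did not pass, with a median of 0.45. The list also holds transcription factors such as *Elk1*, *Elk3* and *Srf*, which may not themselves be induced by ERK. Over all genes 4.79% rose and 5.19% fell, and in either direction 66.7% of the ERK targets passed beside 16.5% of all genes above the median cluster signal. *Klf4*, *Egr1* and *Ets1*, all transcription factors, rose by 1.23, 1.14 and 1.07. The 3 that fell were *Srf*, *Ier3* and *Hmga2*, with differences of -0.75, -0.73 and -0.35. *Gab1* and the genes that fell beyond *Braf*, *Hspg2* and *Socs3* were named after their values were seen. These ERK targets are known to answer to many signals besides FGF.

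**Figure D5:**
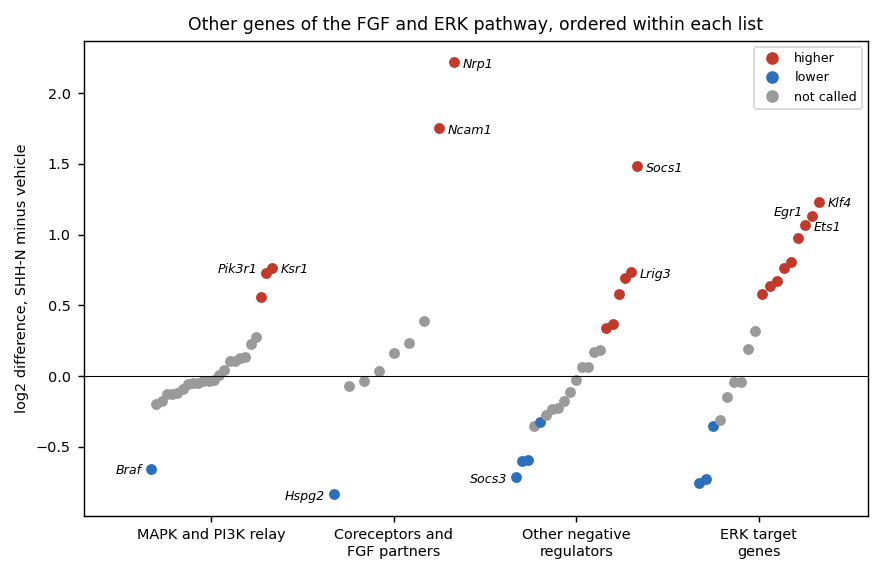
Log2 difference of SHH-treated minus vehicle-treated cNCCs for the other genes of 4 lists, ordered by value within each list, with genes that passed the test in red (higher) or blue (lower) and the rest in grey; up to 3 genes with the largest changes are named in each list. The relay genes lie mostly near 0, and of the 18 ERK target genes 9 are higher and 3 lower. In either direction 66.7% of these passed, beside 16.5% of all genes above the median cluster signal.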

How the data were processed

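Per the labels and the methods, the authors read intensities of Affymetrix Mouse Gene 2.0 ST arrays (1 culture per array) with GCOS, converted them with Expression Console and tested them in Transcriptome Analysis Console 2.0. The log2 signals are used as deposited by the authors. The arrays share nearly the same median; the scaling algorithm and the genome build are not given in the sources used. The number of arrays limits the precision.

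Groups came from the labels. All 41345 transcript clusters were fitted with limma 3.58.1 in R 4.3.3 (lmFit and eBayes, default settings), SHH-N minus vehicle, without a block or a filter, and a gene passed at an adjusted p under 0.01 (Benjamini-Hochberg). Of these clusters, 23521 carry 1 gene symbol in the array annotation, 1820 several and 16004 none. The cluster with the highest mean over 8 arrays stands for a gene. Pairs of receptors or Sprouty genes were compared by exact two-sided permutation of the arrays. Every FGF gene is accounted for, with each array's value for those that passed and the 3 nearest to passing. Of each other list, up to 3 genes that passed with the largest changes are named, besides *Gli1*, *Ptch1* and *Hhip*. The genes, lists and tests were chosen with earlier results of these data known. The fit was tested on simulated data. Plots used matplotlib 3.10.9 (Python 3.11.15).

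Alternatives were the replicate number as a block, trend and robust settings, an unmoderated unpaired linear model, array weights, quantile normalization again, median centring, tests limited to brighter clusters (mean over the median cluster) or to 1-symbol clusters, the second brightest cluster, an adjusted p under 0.05, a fold of at least 1.5, and each array left out.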

Additional observations from a re-analysis of the deposited data

Results flagged for a closer look

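In 118 groups of 4 arrays (59 named genes in each treatment), 4 held an array far from the other 3 by Dixon's criterion, which chance exceeds in about 1 in 20 groups. *Fgf15* read 5.89 in vehicle replicate 3 and 5.64 to 5.66 in the other vehicle-treated arrays. *Spry1* read 9.27 in SHH-N replicate 4 and 9.14 to 9.16 in the other SHH-treated arrays, so that this array adds to its rise. *Spred1* read 9.79 in vehicle replicate 1 and 9.60 to 9.62 in the other vehicle-treated arrays, and without this array the gene passed the test (limma adjusted p = 0.00851). *Ksr1*, a gene of the ERK relay, read 7.79 in SHH-N replicate 4 and 7.59 to 7.62 in the other SHH-treated arrays.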

How the results depend on the processing

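Over the alternatives that give a value and test for each FGF gene, 664 of 695 gene values kept their side of the threshold. Of the others, 20 no longer passed and 11 newly passed. Direction was compared only where a gene passed in the main fit or the alternative, and 0 of those values reversed. Genes that did not pass could change sign, as *Fgf9* did with differences from -0.09 to 0.11. *Fgf7*, *Fgf18*, *Fgfr2*, *Flrt2*, *Spry1*, *Spry2*, *Spred3* and *Dusp5* passed under each alternative that tests the genes singly, and of these *Spred3* fell short of the added 1.5-fold criterion. The replicate number as a block gave 7 higher and 3 lower FGF genes in place of 10 and 5, losing *Fgf5*, *Flrt3*, *Etv1*, *Fgf10* and *Il17rd* (limma adjusted p from 0.0133 to 0.0370). No pairing by number was seen over all clusters: deviations of same-numbered arrays correlated between -0.022 and 0.019, and 1 of 8 arrays correlated best with its own number. A weak pairing or one limited to some genes would not show in these correlations. For the pairs, the block was used in a limma fit of the per-array differences and not in the exact test. There 10 receptor pairs and 5 Sprouty pairs passed, in place of 7 and 5, and the block and the change of test cannot be told apart. Leaving out 1 array at a time gave 9 to 11 higher and 3 to 5 lower genes. The lowest count of lower genes came without vehicle replicate 1 or 2. It gave 6 to 7 receptor pairs and 0 to 6 Sprouty pairs, with 0 only without vehicle replicate 2 and 4 to 6 otherwise. The second brightest cluster gave 8 higher genes, without *Dusp6* and *Etv5*. The remaining alternatives gave 9 to 13 higher and 4 to 7 lower genes. An adjusted p under 0.05 let in *Fgf13*, *Spred1*, *Etv4*, *Fgfr1* and *Frs3*, and the added 1.5-fold criterion left out *Spred3* and *Il17rd*. The cause of the other shifts was not tested. Scaling moved the median of all clusters by less than 0.1 on the log2 scale. The number of arrays and the unknown background limit what can be seen in dim genes.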
